A study of Mus musculus with 2 samples.

Results

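The Iroquois homeobox genes Irx1 to Irx6 and the chromatin around them were examined in DNase-seq of embryonic mouse limb. All 6 mouse members were taken, of 21938 protein-coding genes. They lie in 2 clusters of 3 genes, Irx1, Irx2 and Irx4 on chromosome 13 and Irx3, Irx5 and Irx6 on chromosome 8. Each cluster was studied with 500 kb of sequence on either side of its outermost genes, which gave chr13:71457921-73769608 and chr8:91298525-93180956 on mm10. These intervals held 380 of the 208674 peaks listed for replicate 1 and 327 of the 196593 listed for replicate 2.

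The libraries form 1 group, limb of embryos of strain B6NCrl at age 14.5 days, with male and female embryos pooled and no second tissue, stage or treatment (n = 2 biological replicates). Each library is whole tissue, and its labels carry a donor identifier that the other library carries too, which leaves unclear if separate sets of embryos were used. DNase-seq cuts nuclear DNA with DNase I and maps where the enzyme had access. For each library the authors deposited 150 bp peaks with a whole-number signal, whose scaling is not given in the sources used here, and broader enriched regions called hotspots.

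Iroquois proteins are transcription factors of the TALE class of homeodomain proteins, named after the iroquois mutants of Drosophila, and they pattern many embryonic organs. The vertebrate clusters are paralogous, so that Irx1 pairs with Irx3, Irx2 with Irx5 and Irx4 with Irx6. In mouse, Irx3 and Irx5 act together in the early limb bud and are needed for proximal and anterior skeletal elements, whereas Irx4 is best known from the ventricle of the heart and Irx6 from bipolar cells of the retina. The neighbouring gene Fto, an RNA demethylase, carries long introns that in human hold obesity-associated variants and regulatory elements reported to act on IRX3 and IRX5.

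A peak counted as shared if 1 peak of the other library covered at least 50% of its length, and the position used for it was that in replicate 1. A peak was assigned to a transcription start when its centre lay within 500 bp of any annotated start of the gene. No read depth can be had from the lists. A missing peak therefore means that none was called, not that the site was closed. In bulk tissue, fewer cells with an accessible site and less access per cell cannot be told apart. With 1 group there is no comparison to test, so the values are descriptions.

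Sequences under start peaks of Irx1, Irx2 and Irx3 are shown first, so that they can be set beside that of Irx4. Irx1 (minus strand) is represented by chr13:71963716-71963865, Irx2 (plus strand) by chr13:72628656-72628805 and Irx3 (minus strand) by chr8:91802068-91802125, the 58 bases of its peak that precede the outermost start. For Irx4, which had no peak at its start, the 250 bases before the RefSeq start are given, chr13:73260247-73260496 (plus strand, RefSeq promoter table, GRCm38.p6). Capitals mark matches to any of 16 short motifs defined with the motif results. In these 4 sequences the matches were to GGGCGG, the core bound by SP and KLF factors, with ATCAAAG, the core of TCF and LEF factors, in Irx1 alone among the 4.
Irx1 start: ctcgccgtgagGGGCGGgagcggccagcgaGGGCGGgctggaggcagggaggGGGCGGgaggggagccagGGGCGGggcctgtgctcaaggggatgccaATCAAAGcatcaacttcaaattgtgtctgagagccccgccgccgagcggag
Irx2 start: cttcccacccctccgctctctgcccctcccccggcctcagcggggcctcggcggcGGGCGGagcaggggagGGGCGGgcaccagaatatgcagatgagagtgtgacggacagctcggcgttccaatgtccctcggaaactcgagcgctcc
Irx3 start: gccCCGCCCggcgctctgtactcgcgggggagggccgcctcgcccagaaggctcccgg
Irx4 start: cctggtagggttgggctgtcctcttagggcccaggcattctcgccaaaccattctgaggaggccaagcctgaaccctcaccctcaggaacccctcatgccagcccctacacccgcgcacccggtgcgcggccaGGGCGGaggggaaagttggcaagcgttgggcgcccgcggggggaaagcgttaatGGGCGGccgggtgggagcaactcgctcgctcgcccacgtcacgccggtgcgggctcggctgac
GGGCGG thus stood in the Irx4 sequence as in the other 3 printed. It was not in every shared start peak. The shared start peak of Irx5, not printed, held no match to any of the 16 motifs. The shared start peaks of Irx1 and Irx3 farther from the outermost start, also not printed, held none either. A match to it was found in 35.7% of 32851 RefSeq promoters of 300 bases. Irx2, Irx3 and Irx4 were matched in the RefSeq table, with GC contents of 69%, 56% and 70.7% over these 300 bases. The Irx3 window in that table, chr8:91801605-91801904, held no match to any of the 16 motifs.

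At the starts, 4 of the 6 members, Irx1, Irx2, Irx3 and Irx5, had a shared peak, beside 14169 of 21938 protein-coding genes (64.6%). The 2 without one were Irx4 and Irx6, the paralogous pair at the end of each cluster. With so few members, 4 of 6 lies close to that share, and nothing is read from it. The count was 3 when hotspots that reached into the window were used in place of peaks. By the overlap rule neither Irx1 nor Irx5 then had a shared region, and Irx6 did. At the Irx5 start both libraries nevertheless had a hotspot, chr8:92357224-92359795 in replicate 1 and chr8:92357429-92358046 in replicate 2. The second lay inside the first but covered too little of it to count as shared. Each shared start peak of Irx1 likewise overlapped a hotspot of the other library. For peaks, a window of 1000 bp raised the count to 5.

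**Figure D1:**
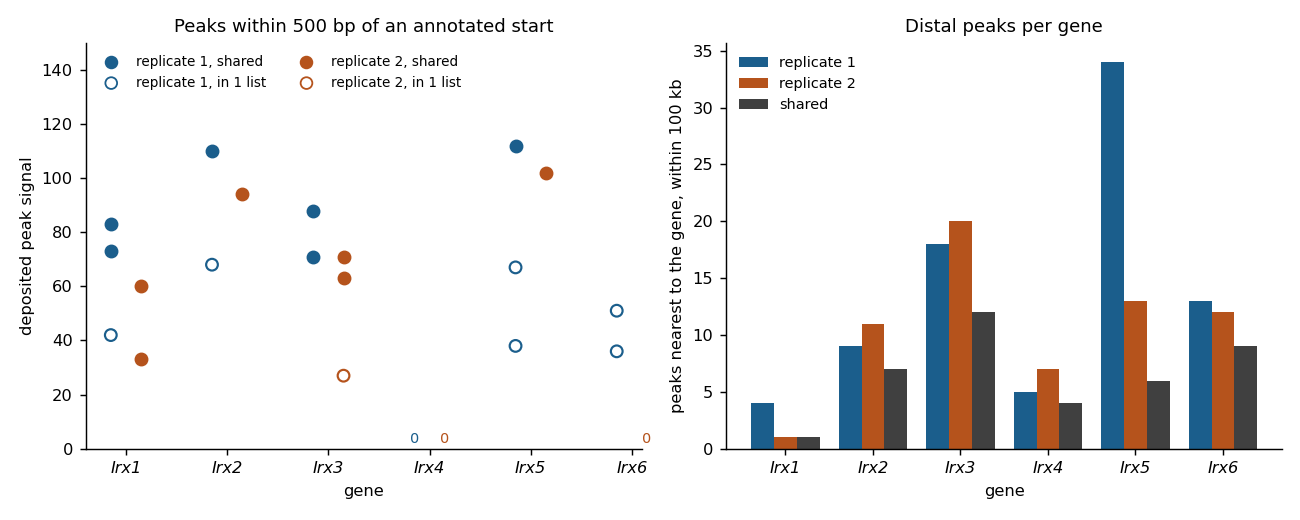
Left: deposited signal of each peak within 500 bp of an annotated start of the 6 genes, with replicate 1 left of replicate 2 and filled points for shared peaks. Right: number of peaks over 1 kb from every protein-coding start that were nearest to the gene within 100 kb, in replicate 1, in replicate 2 and shared. Irx4 had no peak at its start in either list, Irx6 had 2 in replicate 1 only, and Irx5 had 34 distal peaks in replicate 1 against 6 shared.

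Irx1, which in mouse is expressed in the forming digits, had 3 peaks at its starts in replicate 1, with signals of 73, 42 and 83, and 2 in replicate 2, with signals of 33 and 60. The shared peak of 83 and 60 lay 68 bp before the outermost start. The other shared peak, of 73 and 33, lay inside the gene at chr13:71959556-71959705, beside the annotated start of a transcript whose 5′ end is recorded as incomplete. Counting outermost starts alone left Irx1 with 1 shared start peak.

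Irx3, the paralog of Irx1 on chromosome 8, had start peaks of 71 and 88 in replicate 1 and of 63, 71 and 27 in replicate 2. The peaks of 71 and 63 and of 88 and 71 formed shared pairs, and the weakest was listed in replicate 2 alone. The stronger pair covered the outermost start. This start is divergent with that of the antisense gene Irx3os, so the same peak counted for both genes.

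Irx2 had peaks of 110 and 68 in replicate 1 and a peak of 94 in replicate 2. The shared one, of 110 and 94, was centred 89 bp before the start and was at the 95.1 and 96.5 percentiles of signal within the lists of replicates 1 and 2. It also served the divergent noncoding gene Gm20554. Irx5, the paralog of Irx2, had start peaks of 38, 112 and 67 in replicate 1 and of 102 in replicate 2. Its shared peak of 112 and 102, chr8:92357636-92357785, was at the 95.5 and 97.6 percentiles. Within each list, Irx2 and Irx5 thus had the strongest start peaks of the 6 genes.

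Irx6 had peaks of 36 and 51 within 500 bp of its starts in replicate 1 and none in replicate 2. A shared peak of 73 and 41 lay just outside that window, at chr8:92673596-92673745, 617 bp before the first start. Irx4 had none within 1000 bp of a start in either list. The Irx4 gene body held 1 shared peak, chr13:73268816-73268965, in an exon 8.39 kb after the nearest start, with signals of 55 and 30. Replicate 2 listed a further peak of 33 in an exon of Irx4. Irx4 therefore differed from Irx6 in having nothing called near its starts in either library.

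Distal peaks, over 1 kb from every protein-coding start, were given to the nearest such start within 100 kb. By that count Irx3 had 12 shared distal peaks, Irx6 had 9, Irx2 had 7, Irx5 had 6, Irx4 had 4 and Irx1 had 1, a total of 39. Over all protein-coding genes the median was 1 and the mean 3.46. Of all coding genes, 92.7% had fewer shared distal peaks than Irx3, 88.1% fewer than Irx6, 83.1% fewer than Irx2, 79.6% fewer than Irx5, 69.8% fewer than Irx4 and 35.1% fewer than Irx1. By this rule a gene far from other coding starts collects peaks from a longer stretch than a gene with close neighbours. The percentages were not adjusted for such spacing.

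The order depended on the library. Replicate 1 alone gave 4 distal peaks for Irx1, 9 for Irx2, 18 for Irx3, 5 for Irx4, 34 for Irx5 and 13 for Irx6. Replicate 2 alone gave 1 for Irx1, 11 for Irx2, 20 for Irx3, 7 for Irx4, 13 for Irx5 and 12 for Irx6. Irx5 thus had more than Irx2 and Irx6 in each list alone but fewer shared. Replicate 1 listed 25 peaks in a 12.99 kb stretch at Irx5, described below, and those over 1 kb from a start are among its 34. In replicate 2 the counts were close, at 13 for Irx5 beside 12 for Irx6 and 11 for Irx2. Irx3 was above Irx1, Irx2, Irx4 and Irx6 by all 3 counts. The clusters also hold many noncoding genes: when starts of any gene could claim a peak, 5 of the shared distal peaks remained with a member, 4 of them with Irx6 and 1 with Irx2.

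Where the distal peaks lay differed among the members. Of the 12 at Irx3, 7 were on the Fto side, from 51.0 to 91.96 kb after its start, and the other 5 ran from 3.40 to 97.9 kb before it. The strongest at Irx3 was the farthest, with signals of 65 and 64. Those at Irx6 all lay between 23.8 and 76.1 kb from a start, and the strongest, at 99 and 77, lay 46.9 kb after the nearest one. The single shared distal peak of Irx1, with signals of 54 and 44, lay just beyond the 3′ end of the gene. It was 2.78 kb after a start whose transcript is recorded as incomplete, and 7.07 kb after the outermost start. It also lay in the start window of the noncoding gene Gm40999, so the same peak counted as a start peak of that gene. On chromosome 13 the strongest distal peak near a member was 99.97 kb before Irx4, just inside the limit, with signals of 90 and 55.

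The strongest distal peak of both intervals lay 1.41 kb before Irx5, at chr8:92356136-92356285, with signals of 132 and 112. It fell beside the start of Crnde, a noncoding gene that runs away from Irx5, and ranked above the start peak of Irx5 itself in both lists. Its sequence and those of the strongest distal peaks near Irx6, Irx4 and Irx1 that carried a motif match are shown on the plus strand of mm10, since they are the sites outside the starts on which the description of each cluster turns. The peak for Irx6 was chr8:92721656-92721805, that for Irx4 chr13:73160436-73160585, and that on the low-coordinate side of Irx1 chr13:71734456-71734605. Capitals again mark motif matches.
Irx5 and Crnde: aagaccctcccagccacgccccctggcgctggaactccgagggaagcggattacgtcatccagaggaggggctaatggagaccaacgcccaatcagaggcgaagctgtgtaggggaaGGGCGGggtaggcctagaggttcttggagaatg
Irx6 distal: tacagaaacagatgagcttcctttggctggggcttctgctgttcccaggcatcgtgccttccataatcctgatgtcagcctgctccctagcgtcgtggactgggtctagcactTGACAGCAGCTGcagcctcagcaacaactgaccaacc
Irx4 distal: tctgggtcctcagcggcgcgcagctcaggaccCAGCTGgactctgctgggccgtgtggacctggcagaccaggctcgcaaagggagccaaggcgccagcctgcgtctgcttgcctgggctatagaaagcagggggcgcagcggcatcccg
Irx1 side: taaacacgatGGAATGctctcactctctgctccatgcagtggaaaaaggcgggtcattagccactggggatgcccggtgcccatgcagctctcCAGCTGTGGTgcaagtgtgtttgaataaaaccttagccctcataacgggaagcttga
The Irx5 and Crnde peak held GGGCGG. The Irx6 peak held TGACAG, the core of MEIS and TGIF proteins, which are also TALE homeodomain factors, followed directly by the E-box CAGCTG. The same E-box was the sole match in the Irx4 peak. The Irx1-side peak, 229 kb from the outermost start of Irx1 in an intron of the noncoding gene Gm40999, held GGAATG (TEAD) and an E-box overlapping TGTGGT (RUNX), with signals of 85 and 60. The other distal peaks among the 5 strongest of each interval lay near other genes or at the border. On chromosome 13, chr13:73718396-73718545, of 102 and 67, lay 13.6 kb before Slc6a19, and chr13:73447096-73447245, of 79 and 73, lay 20.03 kb before Lpcat1. Another, chr13:71458536-71458685, of 95 and 64, was the peak nearest the low-coordinate border, 501 kb from a start of Irx1. On chromosome 8, chr8:92828536-92828685, of 91 and 76, lay in an intron of the protease gene Mmp2.

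**Figure D2:**
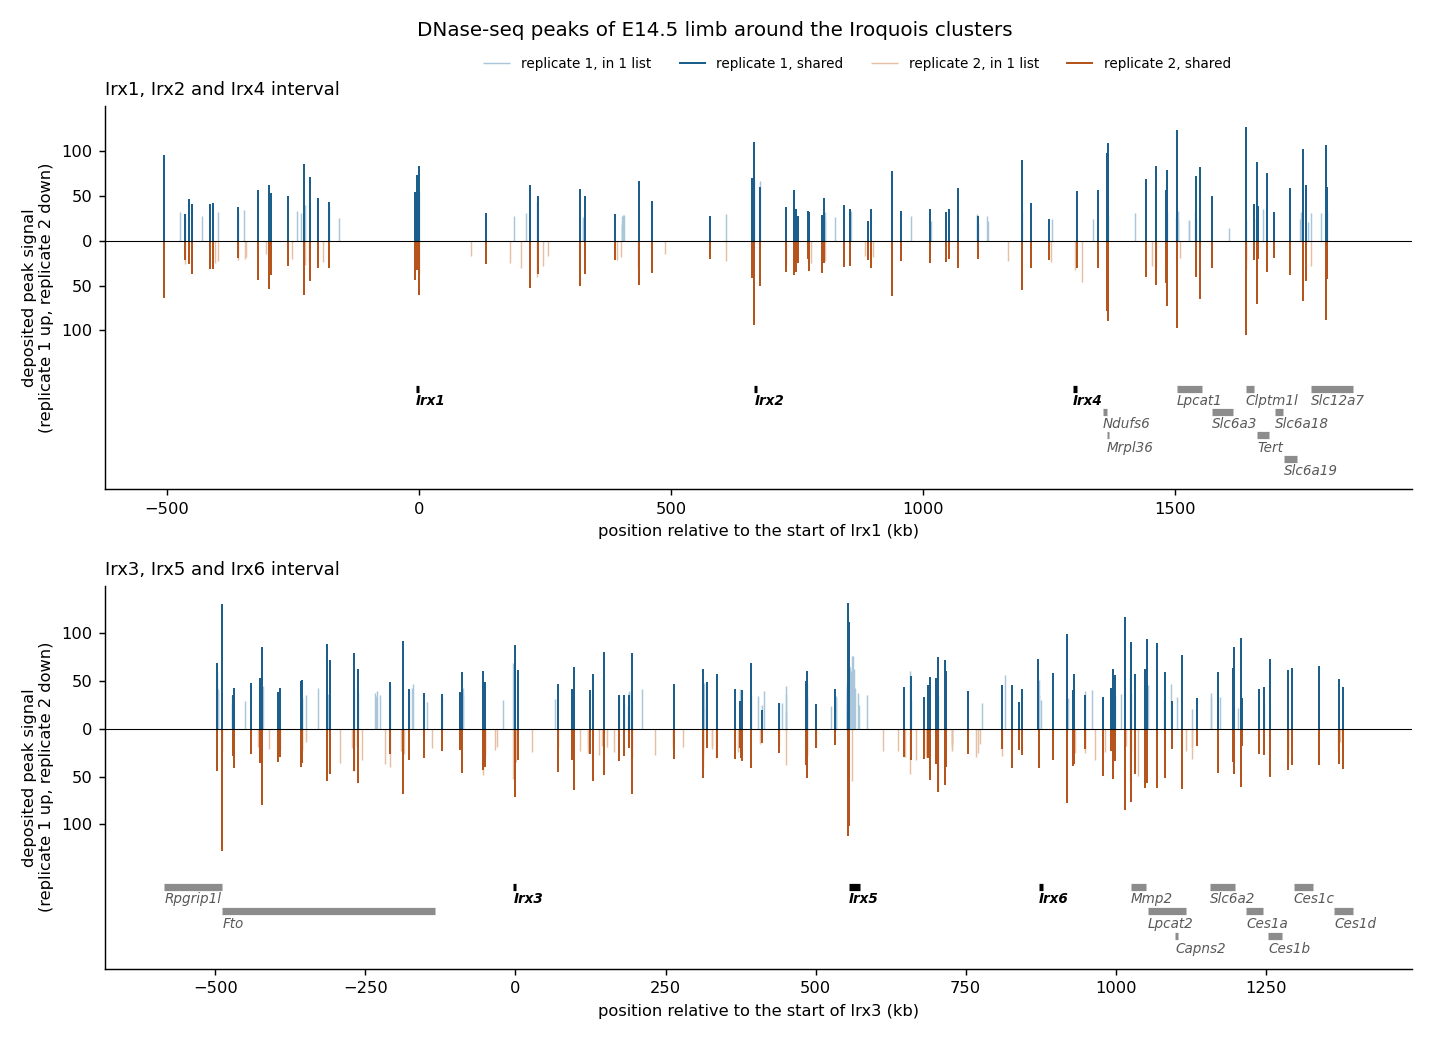
Deposited peak signal along both intervals, with replicate 1 drawn upward and replicate 2 downward, dark for shared peaks and pale for peaks in 1 list; bars under the axis are protein-coding genes, with the Iroquois genes in black. The Irx1 to Irx2 space on the upper map is sparse, with 14 shared peaks, and the pale block at Irx5 on the lower map is made of replicate 1 peaks.

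The chromosome 13 interval, 2312 kb long, held 148 peaks in replicate 1 and 123 in replicate 2, a mean of 135.5 ± 17.7 (SD, n = 2). Of these, 55.4% and 67.5% were shared, beside 61.2% of all peaks of replicate 1 and 65% of all peaks of replicate 2. The chromosome 8 interval, 1882 kb long, held 232 and 204 peaks, a mean of 218 ± 19.8 (SD, n = 2), of which 50.4% and 57.8% were shared. The 82 shared peaks on chromosome 13 amounted to 3.55 per 100 kb and the 117 on chromosome 8 to 6.22 per 100 kb, beside 4.68 over all chromosomes. The difference in density between the clusters was also seen in each list alone, at 12.3 peaks per 100 kb on chromosome 8 and 6.40 on chromosome 13 in replicate 1, and at 10.8 and 5.32 in replicate 2.

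Shared peaks were mostly far from starts. On chromosome 8, 107 of 117 (91.5%) were distal, and on chromosome 13, 65 of 82 (79.3%), beside 77.6% of all shared peaks. Peaks in a start window made up 7 of the shared peaks (5.98%) on chromosome 8 and 15 (18.3%) on chromosome 13, beside 17.4% of all. The median distance to a protein-coding start was 52.3 kb on chromosome 8 and 104 kb on chromosome 13. Median signals were 51 in replicate 1 and 37 in replicate 2 for chromosome 8, 50 and 35 for chromosome 13, and 53 and 38 over all shared peaks. Signal ranked alike in the libraries, with a Spearman coefficient of 0.853 over 199 shared peaks, which are not independent samples.

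**Figure D3:**
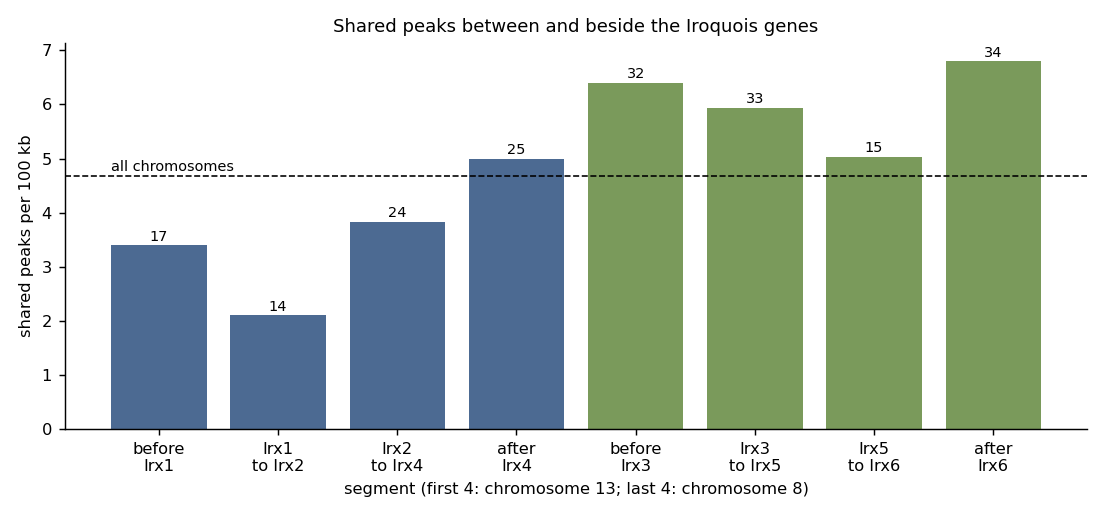
Shared peaks per 100 kb in each stretch between and beside the Iroquois genes, gene bodies left out, with the number of shared peaks above each bar and the level over all chromosomes as a dashed line. The 3 stretches before Irx1, between Irx1 and Irx2 and between Irx2 and Irx4 lie under that line, and the other 5 above it.

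Within the chromosome 13 cluster, the 665 kb between Irx1 and Irx2 held 14 shared peaks, or 2.10 per 100 kb. The 626 kb between Irx2 and Irx4 held 24, or 3.83 per 100 kb, and the densest 50 kb of the interval lay there, at chr13:72687921-72737920, with 6 shared peaks. Irx1 stood between the longest stretches in which neither list had a peak. The first, chr13:71804886-71956575, was 151.7 kb long and ended just after the 3′ end of Irx1, and the second, chr13:71964606-72066635, was 102 kb long and began less than 1 kb before its start.

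On chromosome 8 no stretch without a peak was over 45.2 kb. The 556 kb between Irx3 and Irx5 held 33 shared peaks, or 5.94 per 100 kb, and the 298 kb between Irx5 and Irx6 held 15, or 5.03. The strongest of those 15 was chr8:92505736-92505885, with signals of 75 and 66, 148 kb after the start of Irx5. The densest 50 kb was chr8:91703525-91753524, with 7 shared peaks, in the space between Fto and Irx3. That space held 8 shared peaks in all over 130 kb.

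Fto, 355 kb long on the low-coordinate side of Irx3, held 47 peaks in replicate 1 and 40 in replicate 2. In its introns there were 44 and 35 peaks, of which 19 were shared, 16.2% of the shared peaks of the chromosome 8 interval. Another 2 shared peaks inside Fto fell in exons of the noncoding genes Gm45289 and Gm45290. Signals of the 19 ran from 36 to 92 with a median of 49 in replicate 1, and from 25 to 80 with a median of 36 in replicate 2. Of all 21 shared peaks inside Fto, those 2 included, intron 8 of the principal transcript, the longest at 143 kb, held 9 and intron 1 held 6, which was 6.28 and 6.80 per 100 kb. Introns 5 and 6 held none. Over the whole Fto gene the 21 amounted to 5.92 per 100 kb, beside 6.22 over the chromosome 8 interval.

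The 3 strongest shared peaks in Fto introns are shown on the plus strand, because they carry the strongest signals of the Fto introns. They are chr8:91378896-91379045 in intron 1, chr8:91613756-91613905 in intron 8 and chr8:91488216-91488365 in intron 7.
Fto intron 1: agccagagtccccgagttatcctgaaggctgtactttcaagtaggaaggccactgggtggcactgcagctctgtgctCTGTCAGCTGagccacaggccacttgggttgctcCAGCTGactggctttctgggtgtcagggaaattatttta
Fto intron 8: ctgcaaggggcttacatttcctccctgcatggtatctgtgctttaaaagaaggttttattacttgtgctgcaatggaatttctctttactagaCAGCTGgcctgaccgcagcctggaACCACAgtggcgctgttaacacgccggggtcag
Fto intron 7: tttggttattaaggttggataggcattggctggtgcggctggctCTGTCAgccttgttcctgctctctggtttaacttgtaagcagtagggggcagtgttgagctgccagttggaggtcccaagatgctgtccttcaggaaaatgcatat
The intron 1 peak, 423 kb from the start of Irx3, had signals of 86 and 80 and held CTGTCAGCTG, in which TGACAG on the opposite strand overlaps an E-box, with a further E-box after it. The intron 8 peak, 188 kb from Irx3, had signals of 92 and 68 and held an E-box and the RUNX core. The intron 7 peak, 314 kb from Irx3, had signals of 89 and 55 and held TGACAG on the opposite strand. Chromatin contacts were not measured, so no target is assigned to any of them.

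The Irx5 gene stood out for disagreement between the libraries. From chr8:92354156 to chr8:92367145, a 12.99 kb stretch that spans the shorter Irx5 transcript and its upstream peak, replicate 1 listed 25 peaks, each at most 1 kb from the next, and replicate 2 listed 3. Only the start peak and the Crnde peak were shared. The 23 others of replicate 1 had signals from 25 to 76 with a median of 49, and the third peak of replicate 2 had a signal of 55. Hotspots covered 89.2% of the stretch in replicate 1 and 14.9% in replicate 2.

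**Figure D4:**
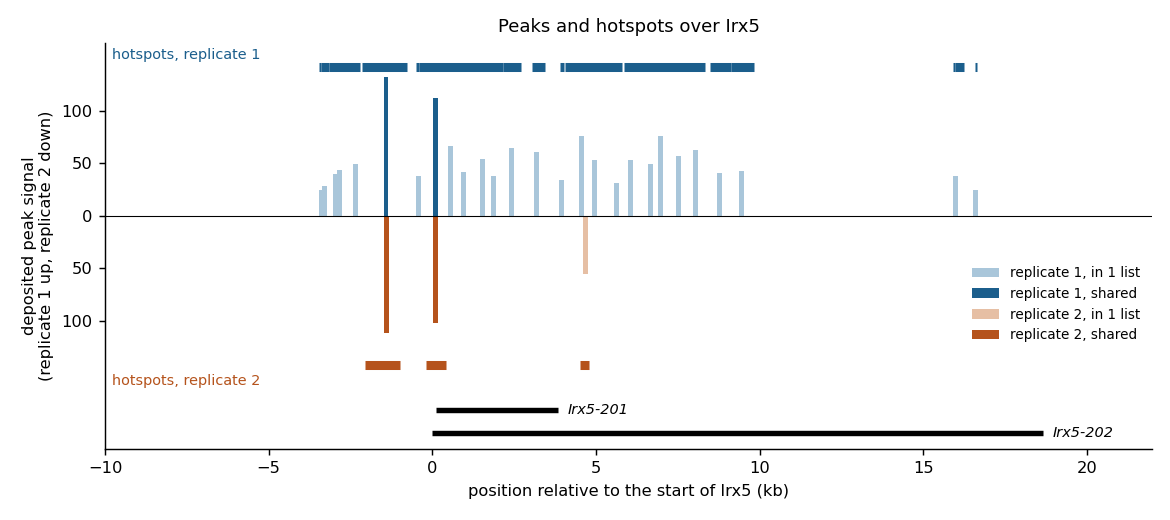
Peaks over Irx5 with their deposited signal, replicate 1 upward and replicate 2 downward, hotspots as thick lines at the top and bottom and the 2 annotated transcripts below. Replicate 1 has an almost continuous row of 25 peaks over 12.99 kb, of which 2 are shared, and replicate 2 has 3 peaks there.

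Counted over each gene and 5 kb on either side, Irx5 had 27 peaks in replicate 1 and 3 in replicate 2. Of 21938 coding genes, 21 had a larger excess in replicate 1, and the median difference was 0. The same count was 8 and 4 for Irx1, 3 and 2 for Irx2, 4 and 6 for Irx3, 1 and 2 for Irx4, and 4 and 1 for Irx6. Runs of at least 25 peaks this close numbered 23 in replicate 1 and 7 in replicate 2. Without the stretch, the chromosome 8 interval had 207 and 201 peaks, of which 55.6% and 57.7% were shared, and 115 shared peaks. Instrument models are named in the labels of replicate 2 alone, and the part of sequencing or of the tissue in this difference was not tested.

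Short motifs were searched on both strands of each 150 bp shared peak, and a peak was counted when it held at least 1 match. Among the 199 shared peaks of the intervals, the TCF and LEF core ATCAAAG was found in 11 (5.53%), beside 2.02% of all 127632 shared peaks. These factors are the nuclear effectors of WNT signalling. ATCAAAG is named first as the motif furthest above its share in all shared peaks, an order set after the values were seen. The Iroquois sequence ACANNTGT itself was found in 17 (8.54%), beside 6.72%. TGACAG, bound by MEIS and TGIF, was found in 25 (12.6%), beside 10.8%. With at most 33 matching peaks a motif, these shares are descriptions and carry no test.

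**Figure D5:**
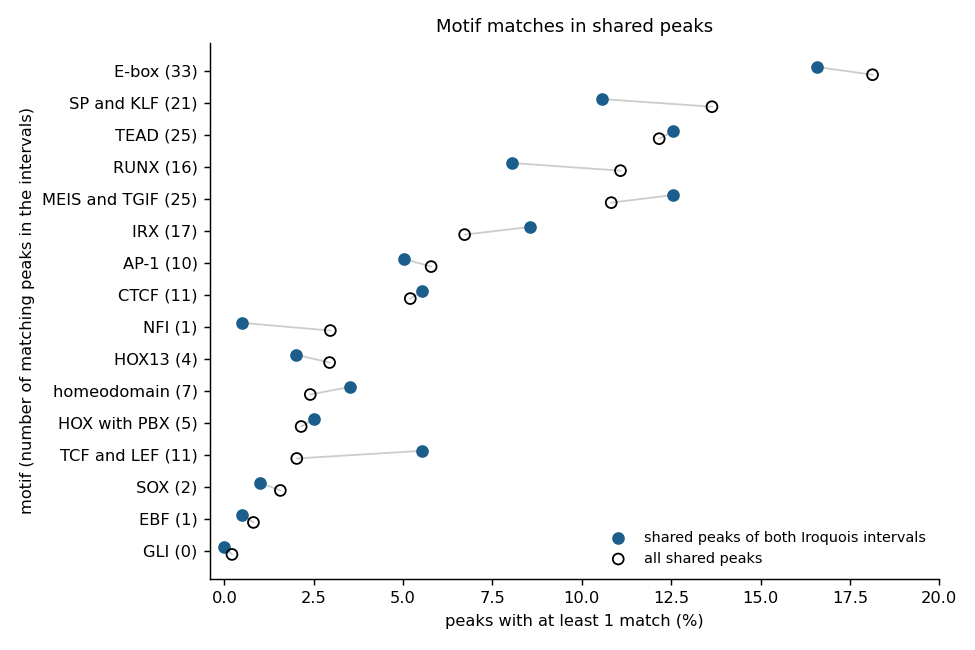
Percentage of shared peaks with at least 1 match to each of 16 motifs, for the 199 shared peaks of both Iroquois intervals (filled) and for all 127632 shared peaks (open), with the number of matching interval peaks in brackets. TCF and LEF matches stand at 5.53% beside 2.02%, and NFI matches at 0.503% beside 2.96%.

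Among the other motifs of homeodomain proteins, TGATTNAT (HOX with PBX) was found in 5 (2.51%), beside 2.15%, CAATAAA (HOX13) in 4 (2.01%), beside 2.94%, and TAATTA (general homeodomain) in 7 (3.52%), beside 2.4%. Of factors tied to skeletal and mesenchymal cells, RUNX (TGTGGT) was found in 16 (8.04%), beside 11.1%, SOX (ACAATGG) in 2 (1.01%), beside 1.56%, TEAD (GGAATG) in 25 (12.6%), beside 12.2%, and AP-1 (TGANTCA) in 10 (5.03%), beside 5.78%. The NFI sequence was found in 1 (0.503%), beside 2.96%, and that of EBF in 1 (0.503%), beside 0.811%. The E-box CAGCTG was found in 33 (16.6%), beside 18.1%, and SP and KLF (GGGCGG) in 21 (10.6%), beside 13.6%. GLI (TGGGTGGTC), the hedgehog effector sequence, was found in none, beside 0.212% of all shared peaks, so its absence is uninformative at this number.

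The 11 peaks with ATCAAAG were spread over both clusters, 4 on chromosome 13 and 7 on chromosome 8. The Irx1 start peak printed above was the sole one in a start window. Signals of the 11 ran from 22 to 83 in replicate 1 and from 20 to 60 in replicate 2. Matches to ACANNTGT were in no start window. Of the 19 shared Fto intron peaks, 5 (26.3%) held ACANNTGT, 6 (31.6%) held TGACAG and 6 (31.6%) held the E-box, beside 6.72%, 10.8% and 18.1% of all shared peaks. None of the 19 held the TEAD core, beside 12.2%, and the other 12 motifs were found in 0 to 2 of them, a grouping looked at after the values were seen. Of the 11 ATCAAAG peaks, 3 also held the Iroquois sequence, and they are shown on the plus strand for that pairing, likewise chosen after the values were seen. They are chr13:72715056-72715205 and chr13:72860976-72861125, both between Irx2 and Irx4, and chr8:93059296-93059445 in an intron of Ces1b after Irx6.
Irx2 to Irx4, first: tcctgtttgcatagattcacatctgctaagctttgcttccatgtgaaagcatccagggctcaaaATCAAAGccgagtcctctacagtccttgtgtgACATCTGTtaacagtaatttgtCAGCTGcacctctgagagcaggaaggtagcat
Irx2 to Irx4, second: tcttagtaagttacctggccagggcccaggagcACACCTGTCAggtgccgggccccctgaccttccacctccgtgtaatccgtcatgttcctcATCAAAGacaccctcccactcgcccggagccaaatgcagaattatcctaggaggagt
Ces1b intron: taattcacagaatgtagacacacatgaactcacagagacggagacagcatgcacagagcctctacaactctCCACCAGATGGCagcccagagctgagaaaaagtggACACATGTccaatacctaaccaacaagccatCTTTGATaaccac
Signals were 27 and 21 for the first, 35 and 31 for the second and 73 and 50 for the third. In the second, ACACCTGT and the TGACAG match overlapped. The third held a CTCF match as well.

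CTCF, the factor that binds at many boundaries between chromatin domains, had a motif match in 11 of the 199 shared peaks (5.53%), beside 5.2% of all shared peaks. On chromosome 8, all 6 lay after Irx6, among Mmp2, Slc6a2 and the Ces1 genes. The 83 other shared peaks of that interval, from Fto to Irx6, had no exact match. On chromosome 13, 4 of 5 lay after Irx4 and the other lay between Irx2 and Irx4, with none from the low-coordinate border to Irx2. The strongest was chr8:92818316-92818465, 8.90 kb before Mmp2, with signals of 117 and 85, and its sequence on the plus strand shows the match followed by an E-box.
CTCF before Mmp2: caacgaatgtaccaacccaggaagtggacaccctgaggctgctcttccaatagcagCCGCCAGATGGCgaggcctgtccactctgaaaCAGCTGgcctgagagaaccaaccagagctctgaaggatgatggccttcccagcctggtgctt
Flanks of 250 kb in place of 500 kb left 5 of the 11. The layout holds for exact matches to a strict pattern, and sequences that differ from it by a letter were not counted. The Fto intron 1 and intron 7 peaks printed above each hold such a sequence. So does the shared peak chr13:72292576-72292725 between Irx1 and Irx2, with signals of 50 and 37. No match says only that the motif's letters are not in a 150 bp window, and CTCF binding was not measured here.

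Start peaks of neighbouring genes were counted in the same way. Of the other protein-coding genes with a start in the interval, 8 of 9 on chromosome 13 and 5 of 10 on chromosome 8 had a shared one. Over all protein-coding genes the share was 64.6%. With so few genes, nothing is read from the difference between the clusters. On chromosome 13 these were Ndufs6, Mrpl36, Lpcat1, Slc6a3, Clptm1l, Tert, Slc6a19 and Slc12a7, and Slc6a18 had none. On chromosome 8 they were Rpgrip1l, Fto, Mmp2, Lpcat2 and Ces1a, and Capns2, Slc6a2, Ces1b, Ces1c and Ces1d had none by positions in replicate 1. For Ces1d, replicate 2 listed a start peak of 37 that was shared, but its partner in replicate 1 was centred outside the window. The start that Fto shares with Rpgrip1l, a ciliary gene, had the strongest peak of the chromosome 8 interval in replicate 2, with signals of 131 and 128 in replicates 1 and 2. On chromosome 13 the strongest was at Clptm1l, with signals of 127 and 105. Both exceed every start peak of an Iroquois gene in the same list. Of noncoding genes, 2 of 18 on chromosome 13 and 5 of 33 on chromosome 8 had a shared start peak. The share over all noncoding genes was not counted, so nothing is read from these counts.

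The borders at 500 kb are arbitrary. On chromosome 13 the lowest peak inside, of 95 and 64, lay 0.615 kb from the border by the list of replicate 1, and the nearest peak outside, of 37 and 33, lay 4.48 kb beyond it. At the high end the last peaks inside had signals of 33 and 43 and the nearest outside 32 and 18. On chromosome 8 the first peaks inside had signals of 31 and 39 and the nearest outside 59 and 46, and the last inside had 44 and 42 and the nearest outside, 37.0 kb beyond the border, 23 and 28.

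The limb label was checked with lists of defining genes by shared start peaks. All 10 genes of the limb mesenchyme list had one, beside 64.6% of all protein-coding genes. So did 5 of 6 epidermis genes, whereas 1 of 6 heart and 1 of 6 retina genes did. Chondrocyte and skeletal muscle had 4 of 6 each (66.7%). That is close to the share of all genes, and nothing is read from it. Endothelium had 2 of 6, brain neuron 3 of 6 and erythroid 1 of 5, and their part in the Iroquois peaks was not tested. The limb mesenchyme count was 6 by hotspots. Of the TALE genes outside the Iroquois family, Meis, Pbx, Pknox, Tgif and Mkx, 12 of 12 had a shared start peak, beside the same 64.6%. Of the TALE genes listed here, Irx4 and Irx6 alone had none by this rule. The contrast depended on the rule. By hotspots 11 of the 12 had a shared start region, as did Irx6, whereas Irx1, Irx4 and Irx5 did not. At the starts of Irx1 and Irx5 both libraries nevertheless had a hotspot, and the overlap rule was not met. With a window of 1000 bp Irx6 had a shared start peak. Several of the lists hold genes used by more than 1 tissue.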

How the data were processed

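DNase-seq of mouse limb was deposited by the authors for 2 libraries of 1 group (n = 2), on the mm10 assembly per the labels. For each library the authors deposited narrow peaks with a signal and hotspots with a −log10 q-value, which reaches a ceiling of 100. How the signal was scaled, and with which aligner and caller the lists were made, is not given in the sources used here, and reads per library are unknown. No list names a gene. Peaks on the autosomes, X and Y were used, and 0 regions reached past a chromosome end of the RefSeq GRCm38.p6 genome, whose primary assembly matches mm10. Genes came from GENCODE M21. Overlaps, nearest starts and motif searches were computed with Python 3.11.15, pandas 2.3.3, numpy 2.4.6 and pysam 0.24.0, and were tested on simulated regions and sequences. Signal percentiles are ranks within a library's own list. Named are all members, all peaks within 500 bp of a member's start, the 5 strongest shared distal peaks per interval, the strongest per segment, 3 in Fto introns and every coding gene in the intervals, by mean signal percentile. Members, intervals, motifs and gene lists were chosen with earlier results of these data known. With 1 group no test was made. Alternatives varied the overlap, the strength of peaks, hotspots, the library, the start window, the flank and the distance limit. A further one, leaving out the stretch at Irx5, was chosen after seeing the data.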

Additional observations from a re-analysis of the deposited data

How the results depend on the processing

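No paired analysis was possible because there is 1 group. Keeping the 50000 strongest peaks of each list reduced the shared peaks to 18 on chromosome 13 and 25 on chromosome 8, those in Fto introns to 3, those with a CTCF match to 5 and the distal peaks nearest to an Iroquois gene to 4. Flanks of 250 kb left 5 CTCF matches, and flanks of 100 kb left 2, with 45 shared peaks on chromosome 13 and 63 on chromosome 8. Distal peaks numbered 13 within 50 kb, 119 with no distance limit and 5 when starts of any gene counted. By hotspots, 6 limb mesenchyme genes had a shared start region. Leaving out 1 replicate, which counts all peaks of the other, gave 123 to 148 peaks on chromosome 13, 204 to 232 on chromosome 8, 35 to 44 in Fto introns, 64 to 83 distal peaks, 13 with a CTCF match, 4 to 5 Iroquois genes and unchanged counts of 10 limb and 12 TALE genes with a start peak. The remaining counts, under 1 bp overlap, coordinates of replicate 2, hotspots, other start windows, outermost starts, a flank of 250 kb, 300 bp searched and without the stretch at Irx5, stayed within 1.5 times of those reported. Of the counts for single genes, 74 stayed within 1.5 times, 17 were higher and 23 lower. Depth and signal scale are unknown, so weak sites seen in 1 list cannot be separated from sites missed in the other, and the cause of these shifts was not tested.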

Other observations

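The excess of replicate 1 peaks over Irx5 had counterparts at other genes. Among 14277 protein-coding genes of at most 30 kb, a length set after the values were seen, the median difference between replicates 1 and 2 in peaks over the gene and 5 kb on either side was 0. Irx5, with 27 peaks in replicate 1 and 3 in replicate 2, was level with Hlx and Zic1 at a difference of 24. Genes ahead of them included Tbr1 with 34 and 4, Sp9 with 32 and 3, Dlx6 with 33 and 5, Msx1 with 28 and 2, and Zic2 with 28 and 3. Hlx had 26 and 2, Zic1 24 and 0, and Foxd3, which followed, 24 and 2. These genes encode transcription factors of embryonic development, some of the limb (Sp9, Dlx6, Msx1) and some best known from the nervous system (Tbr1, Zic1, Zic2, Foxd3). Further down the first 20 came Shox2, Hmx2, Nkx2-2, Tbx1, Tbx4, Sp8 and Sox17, with 21 to 37 peaks in replicate 1 and 2 to 15 in replicate 2, and Zfp992, a zinc finger gene, with 20 and 0. In the other direction 1 short gene had an excess of 18 or more peaks in replicate 2. The list was read after the order was known and was not tested.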
